A study of Mus musculus with 13 samples.

Results

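The olfactory sensory neuron signalling genes are 10 genes that serve odour transduction, receptor transport, axon growth or gene control in the neurons of the nose: Omp, Gnal, Adcy3, Cnga2, Cnga4, Gng13, Gap43, Ebf2, Ano2 and Rtp1. They were taken by gene symbol from the 34745 genes of the deposited table. Each symbol matched 1 row, and all 10 were among the 17467 genes that passed the filter on low counts. The study measured RNA of whole olfactory bulbs from wild type C57BL/6 mice aged 7 to 8 weeks, which were either untreated or exposed to PM2.5, the fine fraction of airborne particulate matter. The 1st set held 4 control libraries and 3 libraries of mice given PM2.5 at 3 mg/kg, and the 2nd set held 3 control libraries and 3 of mice given 10 mg/kg. Both doses are labelled per 3 days, and the route of exposure is not given in the sources used here. The design text calls the mice male C57BL/6J, 8 weeks old. The labels number the libraries within a group and do not say whether each came from its own animal, and the p-values therefore reflect only how far these libraries scatter, which may be technical.

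Olfactory sensory neurons have their cell bodies and odour-sensing cilia in the nasal epithelium. Their axons form the outer nerve layer of the bulb, wrapped by ensheathing glia, and end in the glomeruli. In the cilia an odorant receptor activates a G protein, adenylyl cyclase makes cyclic AMP, a cyclic nucleotide-gated channel lets in calcium, and a calcium-activated chloride channel amplifies the current. Transcripts of these genes in bulb tissue can come from sensory axons, from bulb neurons that use the same gene, or from adhering nasal tissue.

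Each dose was given in 1 set only, and the exposed libraries of a set were tested against the unexposed ones of that set, so dose and set cannot be told apart. Totals ran from 13032834 to 14095284 counts in controls of the 1st set, 14336721 to 14665696 at 3 mg/kg, 15387870 to 26989267 in controls of the 2nd set and 20227176 to 25548559 at 10 mg/kg. Levels of a gene are given as CPM, its counts relative to the scaled total of the library. Xist ranged from 2250 to 2710 CPM in all 7 libraries of that 1st set, against 0.0992 to 0.555 CPM in the other 6, and Y-linked genes together from 0 to 0.21 CPM against 177 to 230 CPM. By these genes the 1st set has a female pattern of expression and the 2nd a male pattern, although the series is labelled male. This pattern cannot be told apart from set in any comparison between the sets, nor from dose in the difference of the responses. A pair of libraries had the highest sums of markers of tissue next to the bulb. Markers of support and gland cells of the olfactory epithelium (14 genes) summed to 71.3 CPM in control replicate 1 of the 1st set and to 4.57 to 25.3 CPM in the other 12 libraries. Replicate 3 at 10 mg/kg had the highest sum of 12 markers of neighbouring cortex and striatum (346 CPM, against 246 to 332 CPM in the other libraries) and also of 5 red cell genes (302 CPM, against 40.1 to 208 CPM). Of the 4 basal cell markers of the nasal epithelium, Krt5, Krt14 and Krt15 stood at 0 to 0.0756 CPM in every library and Trp63 at 1.19 to 2.87 CPM. Mitral and tufted cell markers of the bulb (8 genes) summed to 2170 to 2700 CPM.

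The 10 genes covered a wide range of levels, which are compared here as FPKM, the deposited value scaled for gene length and library size. Omp, which encodes the olfactory marker protein of mature sensory neurons, was the highest, with a median of 56.6 FPKM over the 13 libraries (32.9 to 74.6), above 97.3% of tested genes. Gng13, a G protein gamma subunit, followed at 25.3 FPKM (18.1 to 39.1), and Gap43, a growth-cone protein, at 22.1 FPKM (18.2 to 44.3). Gng13 was above Gap43 in 8 of 13 libraries, so the order of these neighbours is not settled. Gnal, the olfactory G protein alpha subunit that striatal and other forebrain neurons also use, stood at 13.7 FPKM (10.6 to 22.5). Adcy3, the adenylyl cyclase of odour transduction and of the primary cilia of many brain neurons, stood at 5.7 FPKM (5.27 to 7.09).

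The other members were low. Ano2, the calcium-activated chloride channel, had a median of 0.76 FPKM (0.486 to 1.16), and Cnga2, the principal subunit of the cyclic nucleotide-gated channel, 0.571 FPKM (0.345 to 1.86). Ano2 was above Cnga2 in 8 of 13 libraries. Rtp1, which carries odorant receptors to the cell surface, stood at 0.33 FPKM (0.0785 to 0.812), and Cnga4, a modulatory channel subunit, at 0.3 FPKM (0.0985 to 1.24), with Rtp1 the higher in 4 of 13 libraries. Ebf2, a helix-loop-helix transcription factor of the Olf/EBF family, was the lowest at 0.127 FPKM (0.0725 to 0.355). These low values rest on few reads: 4 to 36 counts per library for Rtp1, 5 to 40 for Cnga4, 17 to 52 for Ebf2, 18 to 83 for Cnga2 and 47 to 197 for Ano2. Omp had 1153 to 3724 counts.

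**Figure D1:**
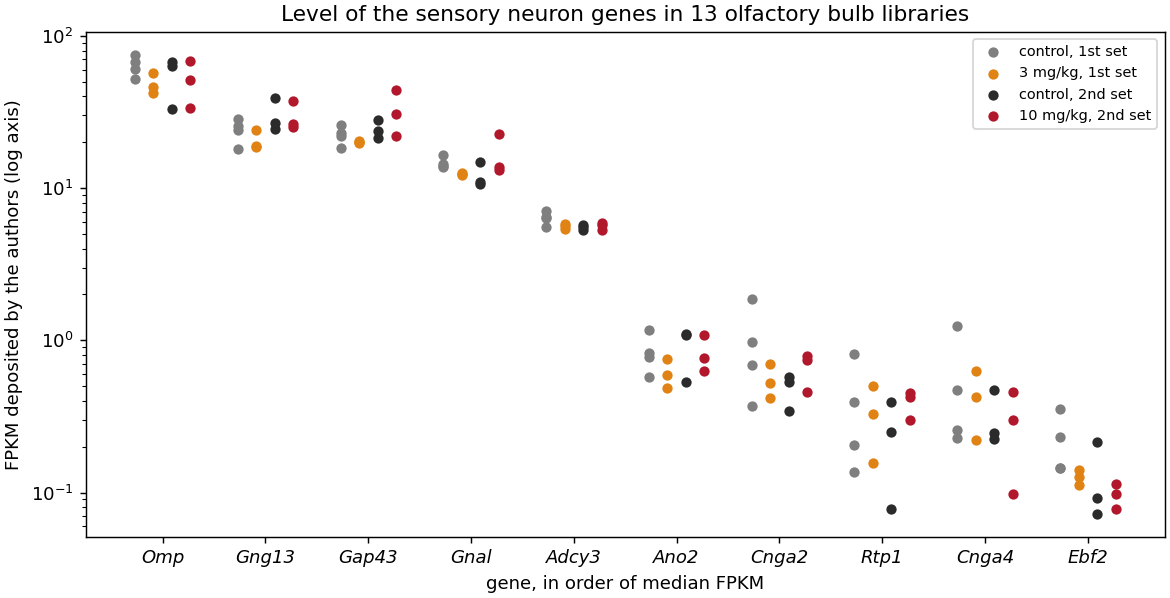
FPKM of each gene in each of 13 libraries on a log axis, genes in order of their median, coloured by group. Omp lies at 32.9 to 74.6 FPKM and Ebf2 at 0.0725 to 0.355 FPKM, and the groups overlap for most genes.

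At 3 mg/kg no member passed the test (edgeR's quasi-likelihood test, Benjamini-Hochberg adjustment over all genes), where 0.00% of the 17467 tested genes passed. No member had an unadjusted p under 0.05, which 2.46% of tested genes had. Every member had a negative log2 fold change, from -0.81 for Cnga2 to -0.14 for Gap43, with a median of -0.29. Over all genes the median was 0 and 49.0% were negative. The members come from the same libraries and partly from the same cells, so their shared sign is not 10 separate observations. Omp stood at 143, 128, 110 and 156 CPM in control replicates 1 to 4 and at 119, 90 and 96.9 CPM in exposed replicates 1 to 3. Exposed replicates 2 and 3 are below all controls, and exposed replicate 1 is above control replicate 3. The group means were 134 ± 19.7 CPM (SD, n = 4) and 102 ± 15.1 CPM (SD, n = 3), with a log2 fold change of -0.40 (95% interval -1 to 0.20, adjusted p = 1). In bulk tissue, fewer sensory axons and less RNA per axon cannot be told apart.

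Among the G protein and cyclase genes, Gnal stood at 93.3, 78.3, 81.9 and 78.6 CPM in the controls and at 70.2, 69.5 and 71.4 CPM at 3 mg/kg. All exposed libraries were below all controls, as they were for 2.91% of tested genes. The log2 fold change was -0.24 (95% interval -0.60 to 0.12, adjusted p = 1). Gng13 stood at 22.1, 23.7, 16.6 and 25.9 CPM in the controls and 21.9, 17.6 and 17.3 CPM at 3 mg/kg, which overlap (log2 fold change -0.22, SE 0.20). Adcy3 stood at 70.4, 64.7, 55.2 and 62.1 CPM in the controls and at 52.8, 56.3 and 57.4 CPM at 3 mg/kg, where control replicate 3 lies within the exposed range. Its log2 fold change of -0.18 had the narrowest interval of the 10 members, -0.38 to 0.01.

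The channel genes had larger fold changes and wider intervals. Cnga2 stood at 6.27, 2.32, 1.26 and 3.26 CPM in the controls and at 2.34, 1.8 and 1.42 CPM at 3 mg/kg. Control replicate 1 was far above the rest, and control replicate 3 was the lowest of all 7. The log2 fold change was -0.81 (95% interval -1.74 to 0.11, adjusted p = 1). Cnga4 stood at 3.02, 0.633, 0.559 and 1.13 CPM in the controls and 1.54, 1.04 and 0.542 CPM at 3 mg/kg (log2 fold change -0.35, SE 0.61). Here too control replicate 1 was the highest, and the other 3 controls, at 0.559 to 1.13 CPM, lay within the range of the exposed libraries. Ano2 stood at 7.56, 3.8, 5.38 and 5.03 CPM in the controls and 4.88, 3.89 and 3.18 CPM at 3 mg/kg, which overlap (log2 fold change -0.45, SE 0.30).

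Of the members outside transduction, Ebf2 stood at 3.93, 1.62, 1.61 and 2.55 CPM in the controls and at 1.4, 1.25 and 1.56 CPM at 3 mg/kg. The exposed libraries were all below the controls, as for 2.91% of tested genes, by a narrow margin against control replicate 3. The log2 fold change was -0.78 (95% interval -1.63 to 0.07, adjusted p = 1). Rtp1 stood at 2.49, 0.422, 0.629 and 1.2 CPM in the controls and 1.54, 0.486 and 1.02 CPM at 3 mg/kg (log2 fold change -0.21, SE 0.59). All exposed values lie within the control range, and control replicate 1 is above every exposed library. Gap43 stood at 47, 49.5, 56 and 38.5 CPM in the controls and at 42.4, 44 and 43.6 CPM at 3 mg/kg, within the control range (log2 fold change -0.14, SE 0.19).

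**Figure D2:**
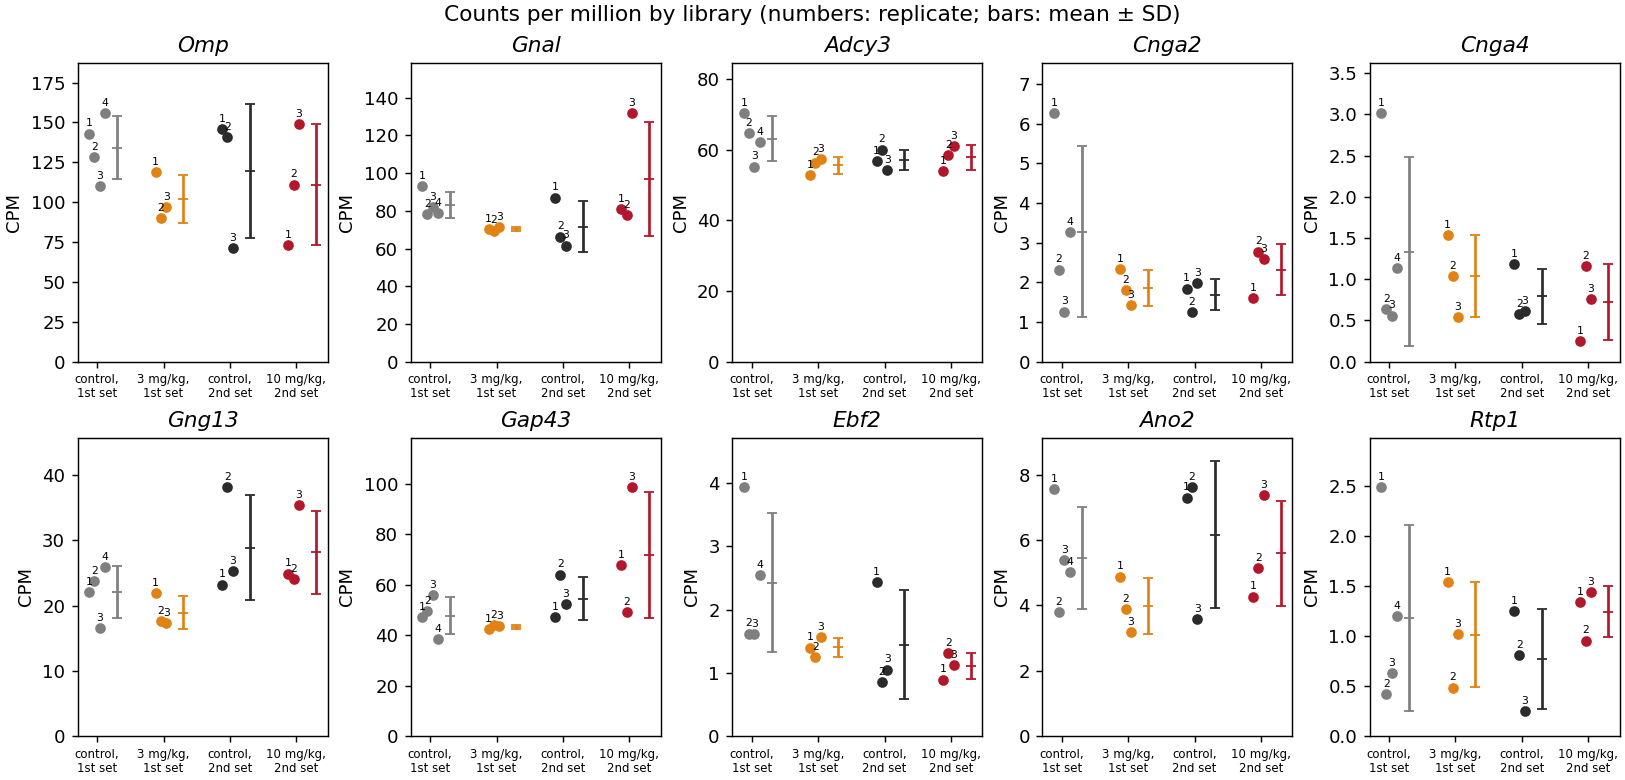
CPM of each gene by group, with the replicate number at each point and bars for mean ± SD. Control replicate 1 of the 1st set is the highest point for Cnga2, Cnga4, Rtp1, Ebf2 and Adcy3, and replicate 3 at 10 mg/kg is the highest for Gnal and Gap43.

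Control replicate 1 of the 1st set carried much of the difference for the low genes. It had the highest level of Cnga2, Cnga4, Rtp1 and Ebf2 among all 13 libraries, and of the better counted Adcy3 (70.4 CPM). It was also the highest for Cyp2a5 (23.3 CPM, against 0 to 6.05 CPM elsewhere) and Cyp2g1 (11.3 CPM, against 0 to 2.87 CPM), enzymes of support cells in the nasal epithelium. That library was the highest for 7 of the 14 support and gland markers, but not for Ugt2a2, Gstm2, Obp1a, Obp2a, Bpifb3, Bpifb9a and Muc5b. The part of adhering nasal tissue in these levels was not tested. Without that library 8 of 10 members had a negative value at 3 mg/kg. Cnga4 stood at 0.42 and Rtp1 at 0.43, Cnga2 moved from -0.81 to -0.29 and Ebf2 from -0.78 to -0.45, and the median was -0.20. Ano2 moved from -0.45 to -0.25, Gnal from -0.24 to -0.18 and Adcy3 from -0.18 to -0.13. Omp (-0.37), Gng13 (-0.22) and Gap43 (-0.15) were close to their values with all libraries. Exposed replicate 1 of the same set had the 2nd highest support and gland sum of all libraries (25.3 CPM), and the members' median on leaving it out was -0.57. With exposed replicate 2 left out, 9 of 10 members were negative. The 9 tested support and gland markers had a median of -0.52 at 3 mg/kg and 0.56 at 10 mg/kg, and none passed.

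**Figure D3:**
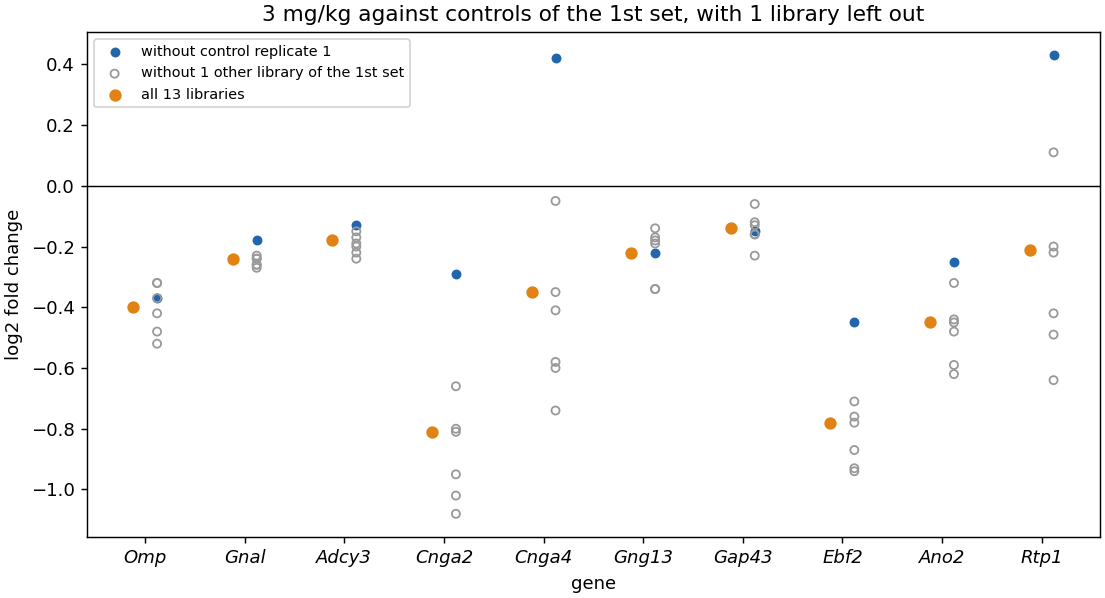
Log2 fold change of each gene at 3 mg/kg with all 13 libraries (orange) and with 1 library of the 1st set left out (circles, filled blue for control replicate 1). Leaving out control replicate 1 moves Cnga4 to 0.42 and Rtp1 to 0.43, and leaves Omp at -0.37.

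At 10 mg/kg no member passed either, where 0.641% of tested genes did (0.521% higher and 0.120% lower). The members were split, with 5 positive and 5 negative log2 fold changes, from -0.34 for Ebf2 to 0.70 for Rtp1, and a median of -0.01, equal to the median over all genes, of which 52.8% were negative. All members overlapped between the groups, whereas 6.08% of tested genes had every exposed library above the controls and 4.36% had every one below. Omp stood at 146, 141 and 71.1 CPM in control replicates 1 to 3 and at 72.9, 111 and 149 CPM in exposed replicates 1 to 3. Each group held both high and low libraries, and the groups cover the same levels. Their means were 119 ± 41.9 and 111 ± 37.9 CPM (SD, n = 3 each), with a log2 fold change of -0.11 (95% interval -0.74 to 0.53, adjusted p = 0.969).

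Gnal had the smallest p of the members at this dose. It stood at 87, 66.3 and 61.5 CPM in the controls and at 80.9, 77.7 and 132 CPM at 10 mg/kg. Exposed replicate 3 was far above the others, and control replicate 1 was above exposed replicates 1 and 2. The log2 fold change was 0.44 (95% interval 0.06 to 0.82, adjusted p = 0.404), and it was the only member with an unadjusted p under 0.05 (0.0266), as 9.65% of tested genes had. Gap43 stood at 47.2, 64 and 52.2 CPM in the controls and 67.8, 49.1 and 98.5 CPM at 10 mg/kg, again with exposed replicate 3 the highest (log2 fold change 0.40, SE 0.20, adjusted p = 0.584). Exposed replicate 3 is the library with the highest cortex and striatum sum. It was the highest of all 13 libraries for 8 of the 12 markers, but not for Pde10a, Cux2, Rorb and Drd2. Chosen after their values were seen, the markers Tac1 (15.4 CPM, against 1.39 to 5.11 CPM elsewhere), Neurod6 (7.94 CPM, against 0.881 to 2.23 CPM) and Drd1 (11.3 CPM, against 3.02 to 5.66 CPM) stood far above the other libraries, and all 3 are genes of striatal or cortical neurons. Pde10a, a phosphodiesterase of striatal neurons, stood at 57.8 CPM there and at 66.4 and 72.5 CPM in the other exposed libraries. The 12 markers of neighbouring cortex and striatum summed to 346 CPM in that library, 286 to 295 CPM in the other exposed libraries and 246 to 284 CPM in the controls. Of these 12 markers 9 had positive values at 10 mg/kg (median 0.29) and none passed. The part of neighbouring brain tissue in Gnal and Gap43 was not tested. Without that library Gnal stood at 0.16 (adjusted p = 0.758) and Gap43 at 0.12.

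The remaining transduction genes at 10 mg/kg were close to their controls or widely spread. Adcy3 stood at 56.8, 60 and 54.2 CPM in the controls and 54, 58.5 and 61 CPM at 10 mg/kg, with a log2 fold change of 0.02 and an interval of -0.18 to 0.22. Gng13 stood at 23.2, 38.1 and 25.3 CPM against 24.9, 24.1 and 35.4 CPM (log2 fold change -0.04, SE 0.21), with 1 high library in each group. Ano2 stood at 7.3, 7.61 and 3.58 CPM against 4.27, 5.13 and 7.38 CPM (log2 fold change -0.14, SE 0.30). As with Omp, control replicate 3 and exposed replicate 1 were the low libraries for Ano2. Cnga2 stood at 1.84, 1.24 and 1.97 CPM against 1.59, 2.77 and 2.59 CPM, where exposed replicates 2 and 3 are above all controls and exposed replicate 1 is not (log2 fold change 0.48, 95% interval -0.49 to 1.45). Cnga4 stood at 1.18, 0.58 and 0.617 CPM against 0.248, 1.16 and 0.758 CPM (log2 fold change -0.10, SE 0.67), and the groups overlap. Both are subunits of the same channel, and for neither was the difference larger than the spread. Rtp1 stood at 1.25, 0.812 and 0.247 CPM against 1.34, 0.956 and 1.44 CPM, with control replicate 1 within the exposed range (log2 fold change 0.70, 95% interval -0.60 to 1.99). Ebf2 stood at 2.43, 0.85 and 1.05 CPM against 0.893, 1.31 and 1.12 CPM, where control replicate 1 was the highest of the set (log2 fold change -0.34, SE 0.43).

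The signs at 10 mg/kg turned with single libraries. The number of negative members was 1 without control replicate 1, 2 without control replicate 2 and 6 without control replicate 3. Leaving out exposed replicates 1, 2 and 3 in turn gave 1, 4 and 6 negative members.

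**Figure D4:**
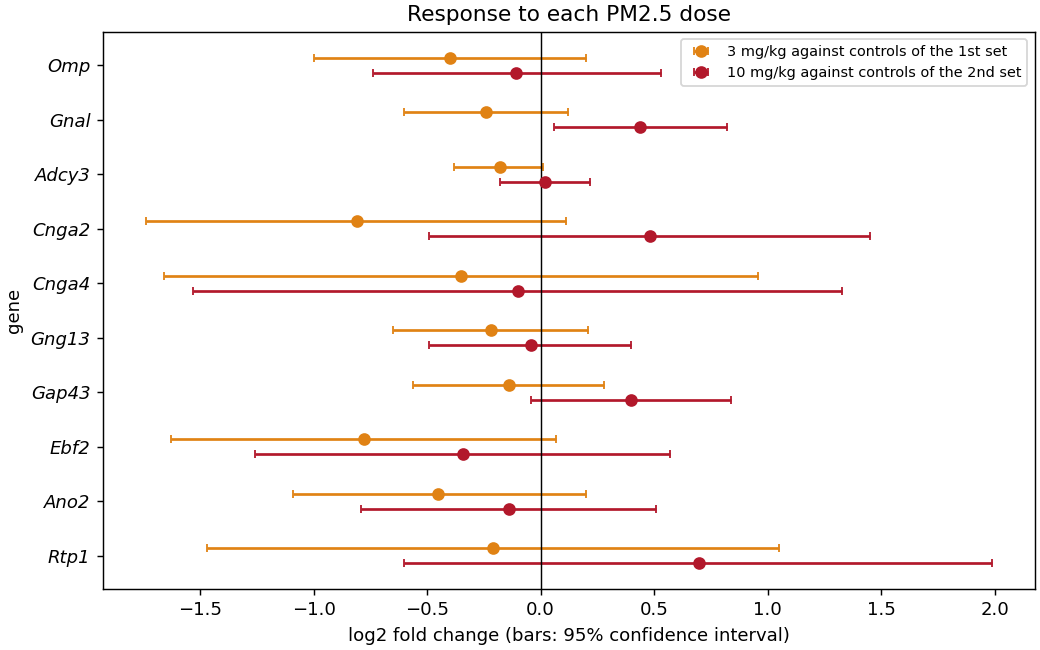
Log2 fold change of each gene at each dose against the controls of its set, with 95% confidence intervals. All 10 values at 3 mg/kg lie below 0 with intervals that reach it, and at 10 mg/kg 5 lie above and 5 below, with only the interval of Gnal clear of 0 before adjustment.

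The responses to both doses were compared directly as a difference, high minus low. No member passed, where 0.00573% of tested genes did (1 gene). Gnal alone had an unadjusted p under 0.05, as 5.99% of tested genes had. All 10 differences were positive, where 51.9% of all genes were negative, and they share the control and exposed libraries of each set. The largest were 1.29 for Cnga2 (95% interval -0.04 to 2.63, adjusted p = 0.856), 0.91 for Rtp1 (SE 0.84), 0.68 for Gnal (95% interval 0.16 to 1.2, adjusted p = 0.725) and 0.54 for Gap43 (SE 0.28). For Omp the difference was 0.29 (95% interval -0.58 to 1.17). Adcy3 (0.20), Gng13 (0.18), Cnga4 (0.24), Ano2 (0.31) and Ebf2 (0.44) also had intervals that include 0.

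Between the unexposed groups of the 2 sets, no member passed, where 19.3% of tested genes did (10.5% higher and 8.74% lower in the 2nd set). Only Cnga2 had an unadjusted p under 0.05, as 35.7% of tested genes had, and 7 of 10 members were negative, against 52.0% of all genes. All members overlapped, whereas 15.8% of tested genes were higher and 14.6% lower without overlap. Cnga2, an X-linked gene, ranged from 1.26 to 6.27 CPM among 1st-set controls and from 1.24 to 1.97 CPM among those of the 2nd (log2 fold change of the 2nd against the 1st set -0.97, 95% interval -1.88 to -0.06, adjusted p = 0.121). Ebf2 stood at -0.78 (SE 0.39, adjusted p = 0.168). Leaving out control replicate 3 of the 1st set brought Cnga2 past the threshold (-1.24, adjusted p = 0.0401), and leaving out control replicate 1 of the 2nd set did so for Ebf2 (-1.38, adjusted p = 0.0254). Without control replicate 1 of the 1st set the values of Cnga4 and Rtp1 were 0 and 0.03, against -0.77 and -0.61 with it. Gng13 stood at 0.39 (SE 0.20), Gap43 and Ano2 at 0.19 each, Adcy3 at -0.15, Omp at -0.17 and Gnal at -0.21.

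Within a group most members varied more than the median gene of a broad range of levels. The SD of log2 CPM between libraries of a group was 0.40 for Omp, where counting error alone gives 0.03 and the median over the 10893 tested genes of at least 10 CPM was 0.15. It was 0.29 for Gng13 and Gap43 and 0.25 for Gnal, against counting errors of 0.08, 0.05 and 0.04. Adcy3 was the exception at 0.10, below that median. Among the low genes it was 0.83 for Cnga4 and Rtp1, 0.61 for Cnga2, 0.51 for Ebf2 and 0.43 for Ano2, where the 6394 genes of 0.5 to 10 CPM had a median of 0.36 and counting error alone gives 0.42, 0.42, 0.25, 0.29 and 0.16. For Cnga4 and Rtp1 the counting error alone is above that median, so the comparison does not account for their low level. Counting errors were computed from raw counts, without the prior count used for log2 CPM.

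Deviations from the group means were compared between members. Of 45 pairs of members 40 had a positive Pearson correlation over the 13 libraries, with a median of 0.43, and the highest was that of the channel subunits Cnga2 and Cnga4 (0.88). Of the 5 pairs below 0, 4 held Gap43, lowest with Ebf2 (-0.44), and the other was Gng13 with Ebf2 (-0.19). The points share libraries and their scaling, and the share of positive pairs over all genes was not computed. Omp was related to each of the other 9 members with exact two-sided permutation within groups (5184 arrangements). With Ano2 the Pearson r was 0.79 (exact permutation p = 0.0156, adjusted over 9 relations p = 0.127) and the Spearman rho 0.74 (p = 0.0266, adjusted p = 0.12, exact permutation). Without the 2 libraries farthest from the median of Omp, control replicate 3 and exposed replicate 1 of the 2nd set, r was 0.63. Within the sets r was 0.39 (7 libraries) and 0.97 (6 libraries). With Rtp1 the Pearson r was 0.61 (exact permutation p = 0.0282, adjusted p = 0.127) and the Spearman rho 0.73 (p = 0.0054, adjusted p = 0.0486, exact permutation). Its r was 0.63 without those 2 libraries and 0.71 in each set. The rank correlation with Rtp1 was the only relation of Omp past the threshold after adjustment. The other 7 ran from an r of 0.11 for Gap43, with -0.81 in the 1st set and 0.31 in the 2nd, to 0.63 for Gnal (exact permutation, smallest adjusted p = 0.164).

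The 8 genes outside the list whose deviations were most like those of Omp were Cd63 (r = 0.975 over 13 libraries), Atf5 (0.971), Tm4sf1 (0.968), Vtn (0.957), Frzb (0.951), Hey2 (0.944), Acadl (0.943) and Smtnl2 (0.942), out of 14650 genes compared. They were selected for this likeness, so the values describe it and carry no test. No other member had an r with Omp as high as the first 100 of the genes compared. Frzb, a secreted Wnt antagonist, is in the list of ensheathing glia markers. It stood at 88.8, 79.6 and 56.5 CPM in 2nd-set controls and at 48.7, 71.5 and 72 CPM at 10 mg/kg, with the same 2 low libraries as Omp. Atf5 is a transcription factor of mature sensory neurons. It stood at 53.1, 46.9, 41.6 and 50.3 CPM in 1st-set controls and at 35.7, 29.4 and 34.8 CPM at 3 mg/kg. All exposed libraries were below all controls, as they were for 2.91% of tested genes (log2 fold change -0.53, adjusted p = 1). At 3 mg/kg the rest of the 8 genes stood between -0.19 (Vtn) and 0.15 (Smtnl2). At 10 mg/kg Atf5 stood at -0.06 (adjusted p = 0.977). The 11 ensheathing glia markers summed to 1410 to 1620 CPM in controls of the 1st set and 1280 to 1450 CPM at 3 mg/kg, and to 1100 to 1590 and 1330 to 1780 CPM in the 2nd set. At 3 mg/kg 10 of 11 of these markers had negative values (median -0.15), at 10 mg/kg 10 of 11 were positive (median 0.13), and none passed at either dose. The 8 markers of granule cells and interneurons had the opposite signs, all positive at 3 mg/kg (median 0.10) and all negative at 10 mg/kg (median -0.10), and none passed. The part of the shares of nerve layer and interneurons in each sample in the levels of Omp was not tested.

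**Figure D5:**
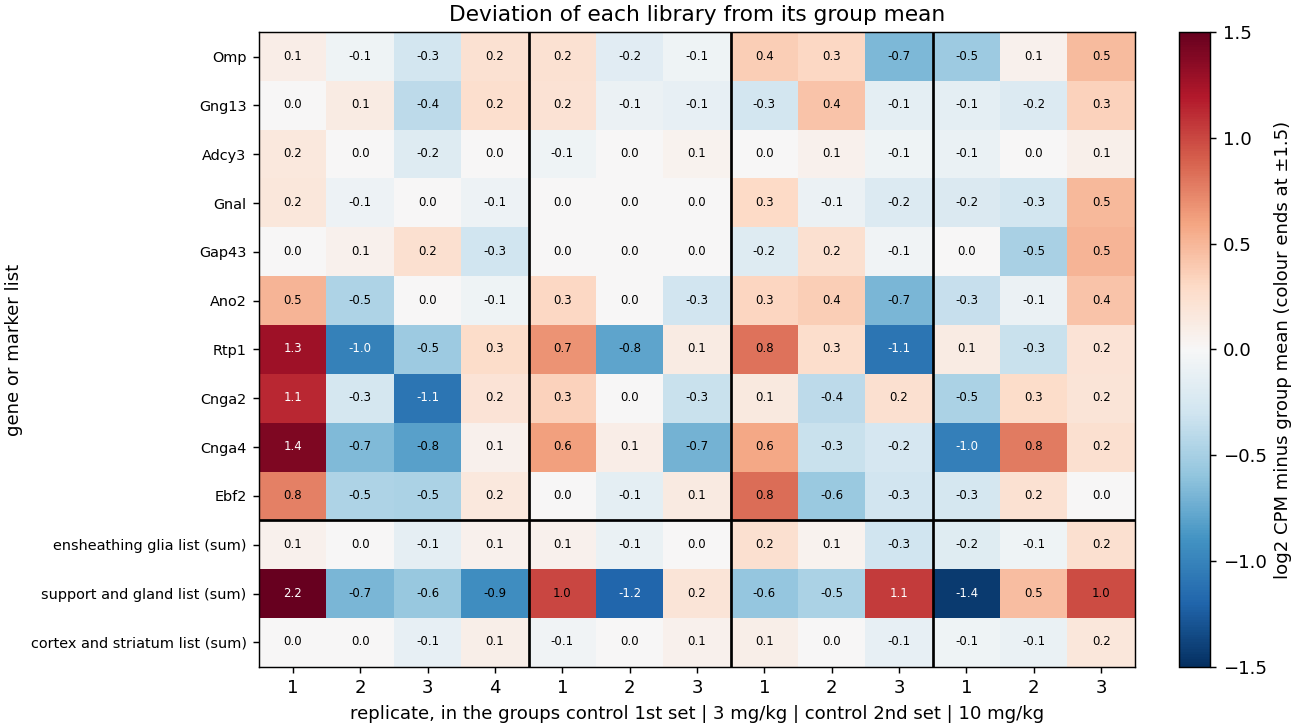
Log2 CPM of each gene in each library minus the mean of its group, with the summed levels of 3 marker lists below the line. Omp and Ano2 are both lowest in control replicate 3 of the 2nd set (-0.67 and -0.69), while Cnga2, Cnga4 and Rtp1 deviate most upwards in control replicate 1 of the 1st set (1.13, 1.40 and 1.27), where Ebf2 is at 0.76 (0.84 in control replicate 1 of the 2nd set) and the support and gland list is 2.20 above its group.

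Promoter windows of members are shown because Ebf2 and its relatives Ebf1, Ebf3 and Ebf4 are known to bind the Olf/EBF motif in sensory neuron genes. RefSeq windows of GRCm38.p6, from 250 bases before to 50 after an annotated start, were found for 5 of the 10 members (Adcy3, Cnga2, Cnga4, Gng13 and Ano2), with 9 windows in all. The letters TCCCNNGGG, the core of that motif, were searched on both strands. This form was chosen after the windows had been seen, and windows of Ano2 partly overlap, so the shares that follow carry no test. It was found in 3 of the 9 windows, 1 each of Cnga2, Gng13 and Ano2, and in 6.56% of all 32851 windows. Cnga2 and Cnga4 are printed as the pair with the closest deviations. Gng13, a G protein gene, is printed for its match, and its r was 0.26 with Cnga2 and 0.15 with Cnga4. Each is written 5′ to 3′ on the + strand, with the match in capitals, and they lie at chrX:71991599-71991898, chr7:105404318-105404617 and chr17:25716922-25717221.

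Cnga2: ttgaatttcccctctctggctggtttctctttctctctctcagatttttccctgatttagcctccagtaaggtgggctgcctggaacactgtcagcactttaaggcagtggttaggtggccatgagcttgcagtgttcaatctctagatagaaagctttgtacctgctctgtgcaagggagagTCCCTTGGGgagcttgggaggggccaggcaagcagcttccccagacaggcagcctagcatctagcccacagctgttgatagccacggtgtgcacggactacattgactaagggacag
Cnga4: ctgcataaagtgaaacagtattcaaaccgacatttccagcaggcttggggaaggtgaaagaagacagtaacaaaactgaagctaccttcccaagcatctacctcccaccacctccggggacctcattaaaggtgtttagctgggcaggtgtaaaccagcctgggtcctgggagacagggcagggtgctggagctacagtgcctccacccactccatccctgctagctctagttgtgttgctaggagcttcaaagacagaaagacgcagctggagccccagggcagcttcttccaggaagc
Gng13: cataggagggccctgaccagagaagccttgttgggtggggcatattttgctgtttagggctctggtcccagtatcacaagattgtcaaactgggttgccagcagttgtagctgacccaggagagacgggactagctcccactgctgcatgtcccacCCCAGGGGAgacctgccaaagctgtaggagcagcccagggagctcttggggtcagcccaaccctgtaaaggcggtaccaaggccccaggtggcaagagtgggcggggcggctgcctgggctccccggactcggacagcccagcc

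In Cnga2 the match begins 67 bases before the start and lies on the + strand. In Gng13 it begins 94 bases before the start and reads on the - strand. Cnga4 has no match in this window, although its deviations were closest to those of Cnga2. A match describes letters only, and its absence says nothing on binding of these factors.

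Other genes of the pathway were taken from 3 lists. Of 19 tested genes of the transduction list, none passed at either dose. Their medians were -0.02 at 3 mg/kg and -0.01 at 10 mg/kg. Slc24a4, a sodium-calcium exchanger that ends the odour response, had the smallest p of the list at 10 mg/kg. It stood at 7.5, 4.37 and 6.48 CPM in 2nd-set controls and at 10.8, 7.8 and 12.9 CPM at 10 mg/kg, all above the controls, as for 6.08% of tested genes (log2 fold change 0.79, SE 0.22, adjusted p = 0.161). At 3 mg/kg its exposed libraries were also all above the controls, as for 3.71% of tested genes (log2 fold change 0.30, adjusted p = 1). Its 2nd-set controls were all below the 1st-set controls (10.6, 10.2, 10.6 and 9.92 CPM), as for 14.6% of tested genes. The log2 fold change between these controls was -0.77 (edgeR's quasi-likelihood test, adjusted p = 0.0229). Calm2, a calmodulin gene, stood at -0.21 (adjusted p = 0.629) and Adrbk2, a kinase of activated receptors, at 0.19 (adjusted p = 0.634). Among genes picked after their values were seen, Cngb1, the channel's beta subunit, stood at -0.52 and 0.07 at the low and high dose, S100a5, a calcium-binding protein of sensory neurons, at -0.31 and -0.10, and Stoml3, a protein of their cilia, at -0.20 and -0.09, none of them past the test. These picked genes were negative at the low dose, where 8 of the 19 tested genes of the list were positive and 11 negative.

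Of 11 tested transcription factors of the sensory lineage, none passed at 3 mg/kg (median -0.09). At 10 mg/kg 1 of them rose, where 0.521% of all tested genes did, and none fell (median 0.11). Neurod1, a helix-loop-helix factor that sensory precursors and several bulb and cortical neurons express, stood at 3.55, 5.1 and 3.7 CPM in 2nd-set controls and at 9.33, 9.46 and 8.38 CPM at 10 mg/kg. All exposed libraries were above all controls, as for 6.08% of tested genes. The log2 fold change was 1.12 (SE 0.18, edgeR's quasi-likelihood test, adjusted p = 0.0102). Neurod1 was not highest in exposed replicate 3, and without that library its log2 fold change was 1.19 (adjusted p = 0.017). The call was lost without control replicate 3 of the 2nd set (1.05, adjusted p = 0.059), with a separate fit of the set (1.13, adjusted p = 0.189) and with the replicate number as a block (1.15, adjusted p = 0.0963). At 3 mg/kg Neurod1 stood at 0.07. Its 2nd-set controls were themselves all below the 1st-set controls (6.8, 6.9, 5.94 and 7.09 CPM), as for 14.6% of tested genes. The log2 fold change between these controls was -0.68 (edgeR's quasi-likelihood test, adjusted p = 0.0159), and 8.74% of tested genes passed in that direction. Lhx2, a homeodomain factor needed for sensory neuron genes, stood at 0.25 (adjusted p = 0.566) and Ebf3 at 0.42 (adjusted p = 0.723) at 10 mg/kg.

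Of 18 tested genes of axon guidance and the glomerular map, none passed at either dose, with medians of -0.02 and 0.01. At 10 mg/kg the smallest p-values were those of Sema3a, a repellent guidance cue, at -0.60 (SE 0.24, adjusted p = 0.401), Slit1, a ligand of Robo receptors, at 0.43 (SE 0.17, adjusted p = 0.402), and Kirrel3, an adhesion molecule that sorts sensory axons, at -0.14 (SE 0.08, adjusted p = 0.659). Slit1 was highest in exposed replicate 3 (53.2 CPM, against 24.9 to 42.1 CPM in all other libraries).

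The genes lie on separate chromosomes except Omp and Cnga4 on chromosome 7 and Gap43 and Rtp1 on chromosome 16 (mm10). Omp (ENSMUSG00000074006, chromosome 7, 98143359 to 98145502, - strand) lies within Capn5 on the same strand and shares 0 exonic bases with it. Further protein-coding members lie at 105404568 to 105408738 on chromosome 7 (Cnga4), 71991849 to 72010218 on chromosome X (Cnga2), 4133103 to 4213525 on chromosome 12 (Adcy3), 25717171 to 25719406 on chromosome 17 (Gng13), 67233292 to 67430918 on chromosome 14 (Ebf2), 125690419 to 126040126 on chromosome 6 (Ano2) and 23429133 to 23433960 on chromosome 16 (Rtp1), all on the + strand. Gap43 lies at 42248442 to 42340651 on chromosome 16, on the - strand. The coordinates of 8 of 10 members equal those of GENCODE M21, and those of Gnal and Cnga4 differ. Whether the counting used strand is not given in the sources used here, and 4 members share exonic bases with a gene on the opposite strand. These are Gnal with Mppe1 (852 bases, Mppe1 at 7.7 to 12.7 CPM), Adcy3 with Cenpo (1380 bases, 4.11 to 8.87 CPM), Gng13 with Chtf18 (399 bases, 1.58 to 3.52 CPM) and Ebf2 with Gm10860 (424 bases, 0 CPM in every library). Without strand, reads of such partners cannot be told apart.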

How the data were processed

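Libraries were made from total RNA with a TruSeq Stranded Total RNA kit, per the labels' protocols. The submitters' processing notes name HISAT2 and mm10. The authors deposited raw counts per gene and FPKM values for 13 libraries, with their counting program and annotation not given in the sources used here. Across 10968 genes with high counts, the deposited count divided by FPKM and library total was constant across libraries (largest relative deviation 5.24e-06). Counts were tested with edgeR 4.0.16 in R 4.3.3 (TMM scaling, filterByExpr, quasi-likelihood test with robust priors) by fitting all 4 groups jointly, with 9 residual degrees of freedom. P-values were adjusted by Benjamini-Hochberg over 17467 genes and called under 0.05. Intervals at 95% use the model's standard error. CPM are scaled by TMM, and correlations use log2 CPM with a prior count of 2. In simulated data (17284 genes) 66.7% of genes changed 2-fold and 94% of those changed 4-fold were recovered at 3 mg/kg, and 70.7% and 95% at 10 mg/kg, with 7 and 12 false calls. The changed genes were drawn at random over all levels, so these shares need not hold for the low and widely spread members.

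Replicates were compared first: no pair agreed within sampling noise (chi-square per gene 5.97 or more, log CPM correlations 0.97 to 0.986). Alternatives were RLE factors, DESeq2 1.42.0, no filter on low counts, a separate fit per set, the replicate number as a block, limma 3.58.1 on log2(FPKM + 1) and leaving out each library. Members and lists were chosen with earlier results of these data known. All members are named, with each listed gene that passed, the 3 of each list with the smallest p at 10 mg/kg, and the 8 genes most like Omp.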

Additional observations from a re-analysis of the deposited data

Results flagged for a closer look

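Gnal is listed because its exposed libraries moved apart in the sets: at 3 mg/kg all 3 were below the mean of their controls, and at 10 mg/kg all 3 were above it. The difference of the responses was 0.68 on the log2 scale (SE 0.24). Tested directly as an interaction with edgeR's quasi-likelihood test it did not pass (unadjusted p = 0.015, adjusted p = 0.725). It ranged from 0.40 to 0.85 with 1 library left out.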

How the results depend on the processing

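No member passed at either dose under any of the 6 other settings (lowest adjusted p at 10 mg/kg 0.352, with DESeq2) or with any 1 of the 13 libraries left out. The sign of every member at both doses was the same under RLE factors, DESeq2, no filter, separate fits, the replicate block and limma. The median of the members ranged from -0.57 to -0.20 at 3 mg/kg and from -0.07 to 0.27 at 10 mg/kg with 1 library left out. The number of all genes past the threshold moved, the cause of which was not tested. At 3 mg/kg it was 0 with edgeR's quasi-likelihood test (429 at an unadjusted p under 0.05), 19 with DESeq2, 9 with a separate fit (4 members then under an unadjusted p of 0.05, lowest adjusted p 0.615) and 2 with limma, and 0 to 2 with 1 library left out. At 10 mg/kg it was 112, 291 with DESeq2, 4 with a separate fit and 5 with the replicate block, and 21 to 138 with 1 library left out (21 without control replicate 3 of the 2nd set).

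Leaving out 1 library turned the sign of some values that had not passed. At 3 mg/kg these were Cnga4 (-0.74 to 0.42) and Rtp1 (-0.64 to 0.43). At 10 mg/kg they were Omp (-0.37 to 0.12), Adcy3 (-0.01 to 0.06), Cnga4 (-0.59 to 0.29), Gng13 (-0.22 to 0.19), Ebf2 (-0.66 to 0.25) and Ano2 (-0.41 to 0.03). For the difference of the responses they were Cnga4 (-0.52 to 0.64) and Gng13 (0 to 0.42), and between the controls Omp (-0.37 to 0.10), Cnga4 (-1.17 to 0) and Rtp1 (-1.09 to 0.03). The alternatives for Neurod1 were chosen after seeing the data.

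Same-numbered libraries were not paired by the labels, and their deviations correlated at 0.004, 0.058 and 0.012 in the 1st set and at 0.134, -0.151 and -0.341 in the 2nd. Control and exposed libraries of unlike number correlated at -0.061 to 0.058 in the 1st set and at -0.377 to 0.455 in the 2nd. With the replicate block the median of the members was -0.24 at 3 mg/kg and 0 at 10 mg/kg, and Omp stood at -0.32 and -0.10. Rtp1 and Cnga4 held as few as 4 and 5 counts. Their SD between libraries of a group was 0.83 on the log2 scale, where counting error alone gives 0.42.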
